A study of Rattus norvegicus with 9 samples.

Results

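The miR-200 family is a group of epithelial microRNAs, and its 8 members counted here were rno-miR-200a-3p, rno-miR-200a-5p, rno-miR-200b-3p, rno-miR-200b-5p, rno-miR-429, rno-miR-200c-3p, rno-miR-141-3p and rno-miR-141-5p. They are 8 of 764 miRNA entries and of 1759 small RNA entries in all. The members were selected by name, but the family itself was chosen from the values of 1 member in 1 comparison, miR-200a-3p in MnCl2 against control libraries. Every value of a member in MnCl2 against control is therefore a description with no test, and so is MMT against MnCl2, which uses the same MnCl2 libraries.

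Small RNAs of the rat striatum, the input nucleus of the basal ganglia, were counted in 9 libraries, 3 from each of 3 groups. The rats, of both sexes, were 8 weeks old and of a strain the labels do not give, and were dosed on 6 days a week over 8 weeks. Control rats received corn oil at 1 ml/kg. MMT rats received methylcyclopentadienyl manganese tricarbonyl, a manganese fuel additive, in corn oil by gavage at 4 mg/kg, which is about 1 mg of manganese per kg. MnCl2 rats, the positive control, received MnCl2·4H2O by gavage at 200 mg/kg in physiological saline at 10 ml/kg. Compound and vehicle therefore cannot be told apart in the MnCl2 group. The labels give neither the sex behind a library nor whether it came from 1 rat or a pool, so a p-value here reflects no more than the spread among these 9 libraries, part of which may be technical.

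MicroRNAs of this family are abundant in epithelia, where they hold down the transcription factors ZEB1 and ZEB2 and thereby keep E-cadherin expressed. ZEB1 and ZEB2 in turn repress both miR-200 clusters, so that the miRNAs and the factors form a double negative loop. Neurons and glia of the adult brain are known for low levels of the family, while epithelial linings, olfactory tissue and some neural progenitors express it.

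The seed, bases 2 to 8 of the mature miRNA, pairs with target transcripts and divides the members into 4 sets. The mature sequences are shown because the values below are read by seed, by cluster and by hairpin arm, with the seed in capitals and T in place of U, as in the deposited entries.
miR-200a-3p: tAACACTGtctggtaacgatgt
miR-141-3p: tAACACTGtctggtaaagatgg
miR-200b-3p: tAATACTGcctggtaatgatgac
miR-200c-3p: tAATACTGccgggtaatgatg
miR-429: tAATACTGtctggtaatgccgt
miR-200a-5p: cATCTTACcggacagtgctgg
miR-200b-5p: cATCTTACtgggcagcattgga
miR-141-5p: tCCATCTTccagtgcagtgttg
No other miRNA entry of the files carried any of these 4 seeds. With positions counted from the 5′ end, the 3p seeds of miR-200a-3p and miR-429 differed by the substitution C4T. Outside the seed, miR-200a-3p and miR-141-3p differed by C17A and T22G, so that their first 16 bases were the same. Reads that end within these bases would fit both entries, and how such reads were assigned is unknown here. Their counts were equal in 0 of the 9 libraries. Over the 21 bases compared, miR-200b-3p differed from miR-200c-3p by T11G alone. The 2 arms that share the third seed, miR-200a-5p and miR-200b-5p, differed by C9T, A12G, T16C, G17A and C18T.

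The hairpins lie in 2 genomic clusters, and 5 of the 8 mature sequences matched the RefSeq table of the GRCr8 assembly. It held no mature entry for miR-200a-3p, miR-200b-3p and miR-429, so these were not compared. In that assembly, Mir200b (chr5:171931495-171931589), Mir200a (chr5:171930717-171930805) and Mir429 (chr5:171929682-171929766) are on the minus strand of chromosome 5, inside the spans of Ttll10 and of the long non-coding RNA LOC106182250. Mir200c (chr4:159209965-159210033) and Mir141 (chr4:159209525-159209618) are on the minus strand of chromosome 4. On the opposite strand RefSeq places Mir3548 over Mir200a and Mir3575 over Mir200c. The entry miR-3548 shares 16 bases or more with miR-200a-5p on the other strand, and their counts over the 9 libraries were 114 and 125, equal in 1 library. How reads were divided between such partners is not given in the sources used here, so the level of miR-200a-5p is uncertain.

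The total count of a library lay between 583045 (control 3) and 2012769 (control 1). All 5 neuronal miRNAs used to check the tissue were present, and their summed level ran from 46456 to 63560 CPM over the 9 libraries. CPM is the count relative to its library total on the usual scale, adjusted by the TMM method so that libraries can be compared. With 3 libraries a group, each library alone weighs heavily, and a count of 0 allows up to 3 counts, for counting error only.

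The family was scarce in the striatum, with 1342 counts in the 9 libraries together. Its most abundant member, miR-429, averaged 43.3 CPM over all libraries and ranked 275 of the 764 miRNAs. It held 30.2% of the family's counts. Next came miR-141-5p at 38.3 CPM (rank 295), then miR-141-3p at 22.1 (rank 381) and miR-200a-3p at 22.0 (rank 383). Below them were miR-200a-5p at 15.1 CPM, miR-200b-3p at 7.44, miR-200b-5p at 7.43 and miR-200c-3p at 1.67 (rank 752). Mature members are 21 to 23 bases long, so these levels carry no length correction. Each member overlapped the next in this order in its range over the 9 libraries.

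Of the 8 members, 7 passed the low-count filter and miR-200c-3p did not. It was counted 1, 2 and 3 times in the control libraries, 2, 1 and 1 times in the MMT libraries and 1, 3 and 0 times in the MnCl2 libraries. All 9 counts are at or under the 3 that a count of 0 allows, so no fold change is given for it. The other arm of its hairpin, miR-200c-5p, is not among the 8 listed members and had 18 counts in all.

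miR-200a-3p varied most between libraries. In the 3 control libraries it was counted 12, 6 and 5 times, which is 6.68, 5.87 and 7.61 CPM. The MMT libraries held 0, 33 and 19 counts (0, 41.4 and 13.5 CPM), and the MnCl2 libraries 39, 63 and 7 counts (53.9, 61.6 and 7.35 CPM). MMT 2, MnCl2 1 and MnCl2 2 thus stood at 41.4 CPM or more, and the other six libraries at 13.5 CPM or less. MnCl2 3 lay within the control range, and in MMT 1 the miRNA was not counted.

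miR-429, made from the same cluster and carrying the other 3p seed, was far more even. Its levels were 39.5, 37.2 and 47.2 CPM in control, 43.5, 32.7 and 33.4 with MMT, and 53.9, 59.7 and 43.0 with MnCl2. The lowest MnCl2 library lay below the highest control library, so the groups overlapped. The group means were 41.3 ± 5.22 CPM in control, 36.5 ± 6.05 with MMT and 52.2 ± 8.43 in MnCl2 (SD, n = 3).

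The third 3p member of the chromosome 5 cluster, miR-200b-3p, rests on 2 to 15 counts a library. It stood at 2.78, 5.87 and 7.61 CPM in control, 5.11, 10.0 and 1.42 with MMT and 15.2, 14.7 and 4.2 with MnCl2. As for miR-200a-3p, MnCl2 1 and MnCl2 2 were the 2 highest libraries and MnCl2 3 was within the control range.

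The 5p arms of that cluster are usually the less abundant strands of their hairpins. miR-200a-5p was at 3.34, 16.6 and 21.3 CPM in control, 13.6, 12.6 and 3.55 with MMT and 26.3, 17.6 and 21.0 with MnCl2. Here MnCl2 3 was as high as the other two MnCl2 libraries, unlike for the 3p arm of the same hairpin. miR-200b-5p ran from 0 to 12.2 CPM in control, from 2.56 to 11.3 with MMT and from 6.30 to 11.7 with MnCl2, and the 0 belonged to control 1.

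Both arms of mir-141, on chromosome 4, were lowest in control 1. miR-141-3p, which shares its seed with miR-200a-3p, was at 5.56, 10.8 and 27.4 CPM in control, 7.67, 40.2 and 10.7 with MMT and 49.8, 31.3 and 15.7 with MnCl2. miR-141-5p was at 5.01, 32.3 and 59.3 CPM in control, 17.9, 59.0 and 17.1 with MMT and 47.0, 56.7 and 50.4 with MnCl2. For both arms MMT 2 was the highest MMT library and control 3 the highest control library.

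**Figure D1:**
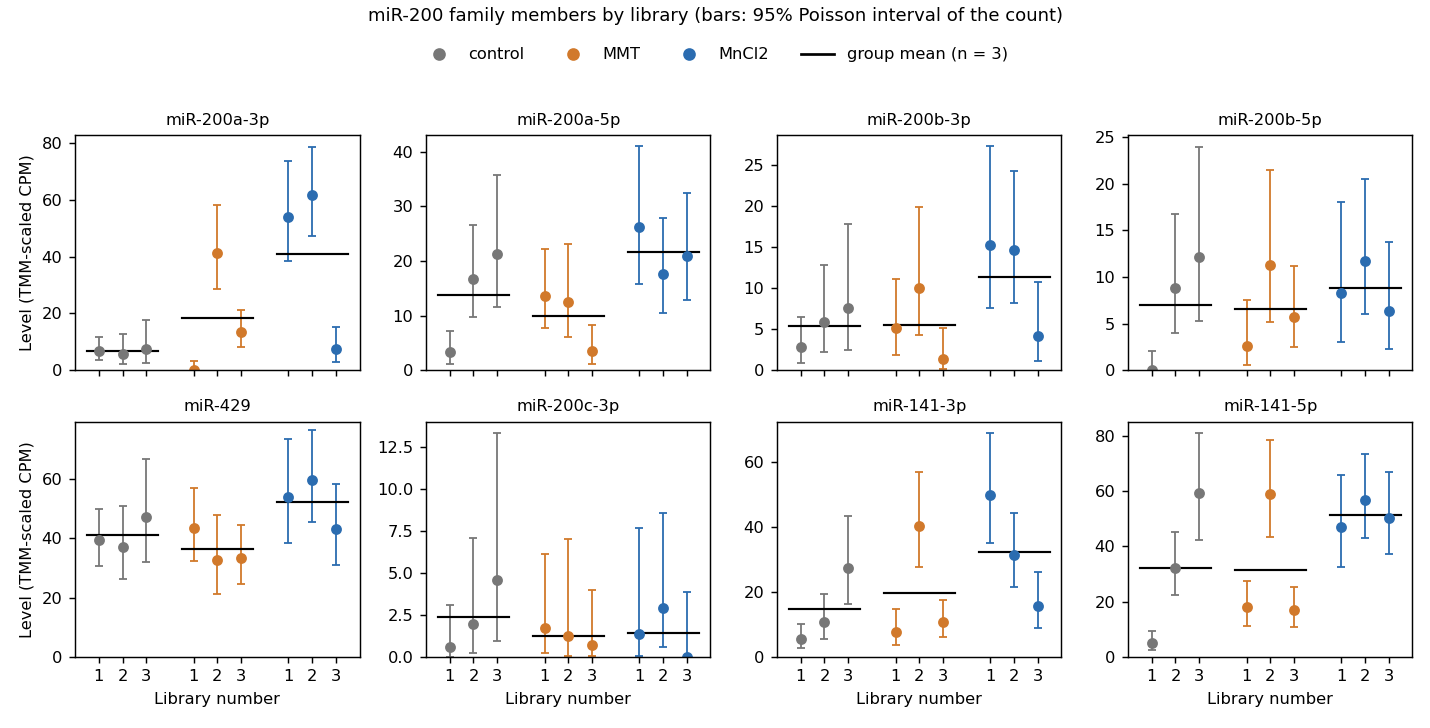
Level of each of the 8 members (CPM scaled by TMM, vertical axis, linear and separate for each panel) in the 9 libraries (horizontal axis, library number within group), with bars for the 95% Poisson interval of the count and lines for the group mean (n = 3). miR-200a-3p stands at 41.4 CPM or more in MMT 2, MnCl2 1 and MnCl2 2, while miR-429 stays between 32.7 and 59.7 CPM in all 9 libraries.

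The spread of a member between libraries was compared with counting error by dividing its variance over the 9 libraries by the variance that counting alone would give, where 1 is counting error only. The ratio was 27.7 for miR-200a-3p, 15.4 for miR-141-5p and 12.7 for miR-141-3p. It was 5.37 for miR-200a-5p, 3.90 for miR-200b-3p, 3.33 for miR-200b-5p and 1.92 for miR-429. Among 321 other tested miRNAs with between 61 and 405 counts, the range of these 7 members, the median ratio was 4.07 and the quartiles 2.22 and 6.54. At or above miR-200a-3p there was 1 of these 321, and 67 were at or below miR-429. The ratio of miR-200a-3p includes the MnCl2 and control values by which the family was chosen.

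Summed by cluster, the 5 members of chromosome 5 were at 52.3, 74.4 and 95.8 CPM in control, 64.8, 108.0 and 57.6 with MMT and 157.6, 165.3 and 81.9 with MnCl2. The group means were 74.2 ± 21.8, 76.8 ± 27.3 and 134.9 ± 46.1 CPM (SD, n = 3). Without miR-429 they were 32.9 ± 18.3, 40.3 ± 30.4 and 82.7 ± 38.0. The 3 members of chromosome 4 summed to 11.1, 45.0 and 91.3 CPM in control, 27.3, 100.5 and 28.4 with MMT and 98.2, 91.0 and 66.1 with MnCl2. Both clusters overlapped between every pair of groups, and MMT 2 and control 3 were the highest libraries of their groups in both.

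Summed by seed, the 2 members with the seed AACACTG, miR-200a-3p and miR-141-3p, spanned the widest range. They were at 12.2, 16.6 and 34.99 CPM in control, 7.67, 81.6 and 24.2 with MMT and 103.7, 92.9 and 23.1 with MnCl2. The seed AATACTG, which differs from it by 1 base, is shared by miR-200b-3p, miR-200c-3p and miR-429. It summed to 42.8, 45.0 and 59.3 CPM in control, 50.3, 44.0 and 35.5 with MMT and 70.5, 77.3 and 47.2 with MnCl2, and miR-429 made up most of it. The 5p seed ATCTTAC of miR-200a-5p and miR-200b-5p ran from 3.34 to 34.6 CPM.

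**Figure D2:**
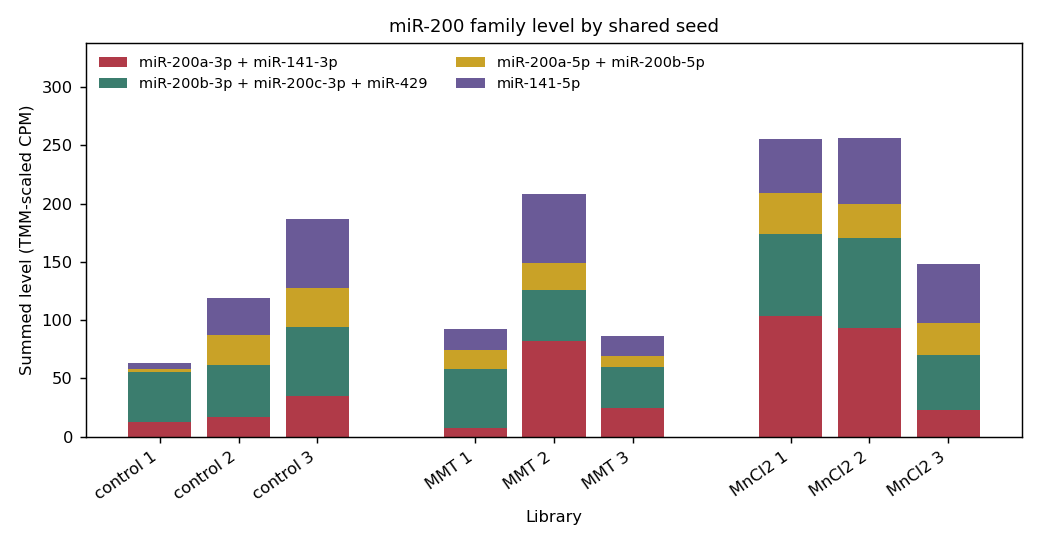
Summed level of the members that share a seed (CPM scaled by TMM, vertical axis from 0) stacked for each of the 9 libraries (horizontal axis). The whole family ran from 63.4 CPM in control 1 to 256.2 CPM in MnCl2 2, and the set of miR-200a-3p and miR-141-3p ran from 7.67 CPM in MMT 1 to 103.7 CPM in MnCl2 1.

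The 2 arms of a hairpin come from 1 precursor. Both are counted in the same library, so their ratio within it does not depend on how libraries are scaled. For mir-200a the ratio may depend on how reads shared with miR-141-3p or miR-3548 were assigned, which is unknown here. For mir-200a the 3p arm held 59.5% of 309 counts over all libraries. By library its share was 66.7%, 26.1% and 26.3% in control, 0%, 76.7% and 79.2% with MMT and 67.2%, 77.8% and 25.9% with MnCl2. Control 2, control 3, MMT 1 and MnCl2 3 thus held mostly the 5p arm, so each of the 3 groups had both kinds of library.

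Within the MnCl2 group the intervals of the share did not all overlap. The exact (Clopper-Pearson) 95% interval was 67.2% to 86.3% in MnCl2 2, from 81 counts, and 11.1% to 46.3% in MnCl2 3, from 27 counts. In MMT 1, with 0 of 16 counts on the 3p arm, it reached 20.6%. The group means of the share, 39.7% ± 23.4 in control, 52.0% ± 45.0 with MMT and 57.0% ± 27.4 in MnCl2 (SD, n = 3), differed by less than the spread within groups. These intervals cover counting error only, since PCR copies are not independent molecules.

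mir-141 had its 5p arm as the more abundant strand, with 36.3% of 491 counts on the 3p arm. The group means of its 3p share were 36.4% ± 14.4 in control, 36.3% ± 5.57 with MMT and 36.9% ± 13.9 in MnCl2 (SD, n = 3), and single libraries ran from 23.8% to 52.6%. mir-200b was split evenly only in the pooled counts, with 50.4% of 123 on the 3p arm. It had 5 to 27 counts a library, and single libraries ran from 20% in MMT 3 to 100% in control 1. In most epithelial tissues the 3p arm is the main strand of all 3 hairpins.

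**Figure D3:**
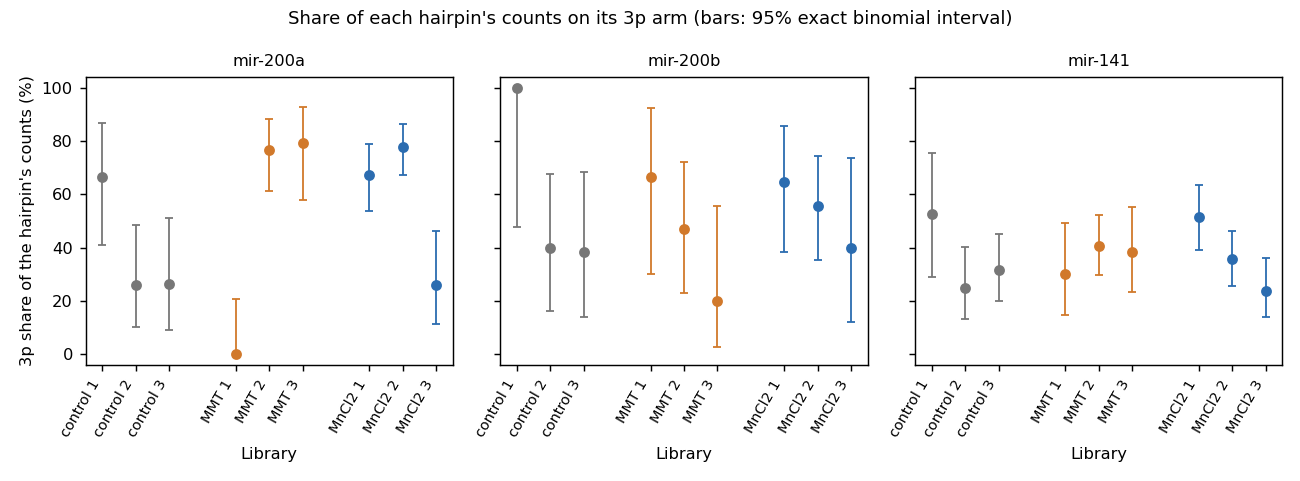
Share of the counts of each hairpin that lay on its 3p arm (percent, vertical axis) by library (horizontal axis; grey control, orange MMT, blue MnCl2), with bars for the exact 95% binomial interval. For mir-200a, 4 libraries lie at or below 26.3% and 5 at or above 66.7%, while mir-141 stays between 23.8% and 52.6%.

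In deeper libraries 4 of the 7 members tested had lower levels by Pearson's r after correction, and 3 of the 7 by both measures used. Pearson's r between log2 CPM and log2 total over the 9 libraries was -0.92 for miR-141-5p (exact permutation p = 0.000223, adjusted over the 1113 relations 0.00671; Spearman rho -0.95, exact permutation p = 0.000353, adjusted 0.0127). It was -0.852 for miR-200b-5p (exact permutation p = 0.00261, adjusted 0.0152; rho -0.867, exact permutation p = 0.00451, adjusted 0.0346). For miR-141-3p r was -0.839 (exact permutation p = 0.00416, adjusted 0.02; rho -0.867, exact permutation p = 0.00451, adjusted 0.0346). The 3 passed the correction by both measures. All relations to the total ran over the 9 libraries without regard to group, so a difference between groups enters them. They include the MnCl2 and control values by which the family was chosen.

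The other members were less clear. For miR-200a-5p r was -0.839 (exact permutation p = 0.0053, adjusted 0.0235), but rho was -0.7 (exact permutation p = 0.0433, adjusted 0.113). For miR-200b-3p r was -0.746 (exact permutation p = 0.0213, adjusted 0.0646; rho -0.783, exact permutation p = 0.0172, adjusted 0.0622). miR-429 gave r = -0.347 (exact permutation p = 0.36, adjusted 0.473; rho -0.317, exact permutation p = 0.41, adjusted 0.523). For miR-200a-3p r was -0.389 (exact permutation p = 0.304, adjusted 0.418; rho -0.533, exact permutation p = 0.148, adjusted 0.243). Its libraries fell into separate sets, at 41.4 CPM or more and at 13.5 CPM or less, so a pooled r describes them poorly.

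Control 1 and control 3 have the log2 totals farthest from the median. With both left out, r over the other 7 was -0.879 for miR-141-5p, -0.849 for miR-141-3p and -0.662 for miR-200b-5p. It was -0.742 for miR-200a-5p, -0.86 for miR-200b-3p, -0.606 for miR-200a-3p and -0.308 for miR-429. CPM has the total in its denominator, so the 2 sides of each relation share a term. The raw counts share none, and they show the same libraries: control 1, with the highest total, held 9 counts of miR-141-5p, whereas control 3, with the lowest, held 39. Counts of miR-429 in these 2 libraries were 71 and 31. Between these totals the counts of miR-141-5p did not fall steadily, and the highest, 58, was in MnCl2 2, with a total of 925950.

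A lower level in deeper libraries was common among scarce small RNAs. Of all 1113 entries tested, 246 (22.1%) passed the correction by Pearson's r in that direction, against 4 of the 7 members. Among the 284 miRNAs that averaged under 30 CPM the median r was -0.76, and 48.6% passed. Among the 200 miRNAs at 30 to 300 CPM the median r was -0.00 and 16.5% passed, and of the 131 miRNAs above that level 0.763% passed. In the scarcest class miR-141-3p, miR-200a-5p and miR-200b-5p had r below the median and miR-200b-3p lay close to it, while miR-200a-3p, also of that class, lay above it. miR-141-5p and miR-429, which belong to the middle class, both had r below its median. The labels give no sequencing batch, so no value within a batch can be given.

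**Figure D4:**
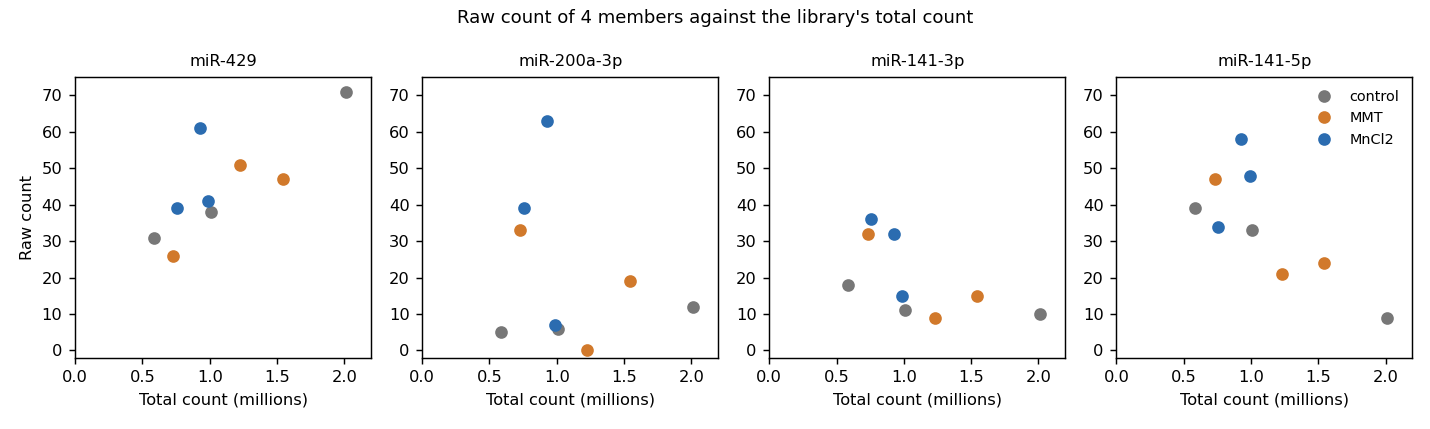
Raw count of 4 members (vertical axis) against the total count of the library (horizontal axis), each point 1 of the 9 libraries, coloured by group. The count of miR-429 was 31 in control 3 and 71 in control 1, the libraries with the lowest and the highest total. That of miR-141-5p was 39 and 9 in the same libraries, and highest, at 58, in MnCl2 2.

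MMT against control is the comparison that the choice of the family did not use, although the control libraries are shared with MnCl2 against control. Both groups received corn oil, so the comparison asks whether the organic manganese compound went along with other levels of these miRNAs. None of the 7 members tested was called (edgeR quasi-likelihood test, Benjamini-Hochberg adjusted p = 1.00 for each over 1113 entries), and the test called 0% of all entries (24 at an unadjusted p under 0.05; DESeq2 called 0, with 24 at that level). With the MMT and control libraries alone, miR-200a-3p, miR-200b-3p and miR-200b-5p did not pass the low-count filter. They were tested here only because the MnCl2 libraries were in the fit. By value, 3 of the 7 members were higher and 4 lower, with a median log2 fold change of -0.00. Of the 615 miRNAs tested 57.4% were higher, with a median of 0.04. Scaled on miRNAs alone, 32.5% of miRNAs were higher, with a median of -0.10, and 2 of the 7 members were, with a median of -0.11.

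The largest of these values was that of miR-200a-3p, a log2 fold change of 1.39 (SE 1.11). It rested on MMT 2, without which it was 0.09. The 0 of MMT 1 lowered it, and without that library it was 1.99. miR-141-3p had 0.46 (SE 0.76), and -0.54 without MMT 2. miR-429 gave the narrowest estimate, -0.17 (SE 0.28). For miR-200a-5p the log2 fold change was -0.42 (SE 0.71), and for miR-200b-3p 0.03 (SE 0.87). It was -0.00 for miR-200b-5p (SE 1.06) and -0.01 for miR-141-5p (SE 0.72). These errors leave room for sizeable changes in either direction, so they do not show that the levels were alike. In 0 of 7 members did the MMT and control libraries lie apart without overlap, against 4.58% of all entries.

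In MnCl2 against control all 7 members had higher values, with a median log2 fold change of 0.74. This is the comparison from which the family was chosen, and nothing is read from its direction. Of the 615 miRNAs tested, 476 (77.4%) were also higher, with a median of 0.23. Scaled on miRNAs alone, 46.7% of miRNAs were higher, with a median of -0.05, and the 7 members were still higher, with a median of 0.49. The log2 fold change was 2.60 (SE 1.09) for miR-200a-3p, 1.22 (SE 0.75) for miR-141-3p and 1.13 (SE 0.83) for miR-200b-3p. The remaining values were 0.74 (SE 0.71) for miR-141-5p, 0.71 (SE 0.69) for miR-200a-5p, 0.48 (SE 1.05) for miR-200b-5p and 0.34 (SE 0.28) for miR-429. With the MnCl2 and control libraries alone, miR-200a-3p, miR-200b-3p and miR-200b-5p did not pass the low-count filter. Their values here exist only because the MMT libraries were in the fit.

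The edgeR test called 0% of the 1113 entries in MnCl2 against control (51 at an unadjusted p under 0.05; DESeq2 called 0, with 75 at that level). Without the low-count filter it called 1 of 1759 entries (0.0569%), and this entry was miR-200a-3p. The family was chosen by the values of this member in this comparison, so the call is no support. Its log2 fold change was 2.48. The standard error of that value was 0.56 without the filter and 1.09 with it. The fold change itself ran from 2.16 without MnCl2 2 to 3.09 without MnCl2 3. For miR-141-5p it was 0.19 without control 1 and 1.49 without control 3. For miR-141-3p it was 0.79 and 1.93, and for miR-200a-5p 0.19 and 1.12, without the same 2 libraries. For miR-200b-5p these values were -0.22 and 1.12. In 0 of 7 members did the 3 MnCl2 libraries lie apart from the 3 control libraries, against 9.7% of all entries.

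Set beside MnCl2, the MMT libraries had lower values of all 7 members, with a median log2 fold change of -0.76, where 27.2% of miRNAs had higher values and the median was -0.19. Scaled on miRNAs alone, 44.7% of miRNAs had higher values and the median was -0.06, and the 7 members were lower there too, with a median of -0.60. The values were -1.21 (SE 1.01) for miR-200a-3p, -1.14 (SE 0.70) for miR-200a-5p, -1.10 (SE 0.83) for miR-200b-3p and -0.51 (SE 0.28) for miR-429. For miR-141-3p the value was -0.76 (SE 0.73), for miR-141-5p -0.75 (SE 0.71) and for miR-200b-5p -0.48 (SE 1.05). With the MMT and MnCl2 libraries alone, miR-200b-5p did not pass the low-count filter. Single libraries of either group set the size of most of these fold changes. Without MMT 2 miR-200a-3p was at -2.43, miR-141-3p at -1.70, miR-141-5p at -1.48, miR-200b-3p at -1.71 and miR-200b-5p at -0.98. Without MMT 1 miR-200a-3p was at -0.60, miR-141-3p at -0.37 and miR-200b-5p at -0.08. On the MnCl2 side, miR-141-3p was at -0.31 without MnCl2 1 and at -1.09 without MnCl2 3. For miR-200a-3p the value was -0.77 without MnCl2 2 and -1.70 without MnCl2 3. Of all entries 0% were called (22 at an unadjusted p under 0.05; DESeq2 called 0, with 26 at that level). The MMT and MnCl2 libraries lay apart without overlap in 1 of 7 members, miR-200a-5p, where MMT was lower. Of all entries 9.07% lay apart, in either direction. The doses of manganese and the vehicles differ between these groups, so the values stand side by side and do not compare the compounds.

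**Figure D5:**
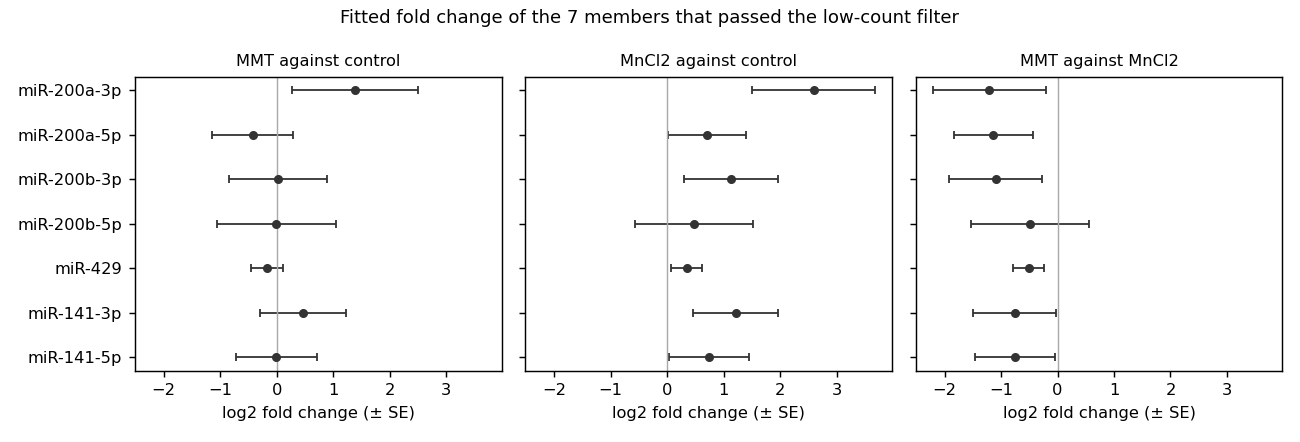
Fitted log2 fold change (horizontal axis, bars ± 1 standard error) of the 7 members that passed the low-count filter (vertical axis) in the 3 comparisons. In MMT against control the values lie on both sides of 0, from -0.42 to 1.39, and the MnCl2 comparisons, which the choice of the family used, hold all 7 members on 1 side.

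Markers of cells that could bring epithelial RNA into a striatal dissection were measured beside the members, and their part in the members' values was not tested. Fewer cells of a type and less RNA per cell cannot be told apart in these bulk samples. Choroid plexus miRNAs, of which 6 of 7 were in the files and none was at 0 in all libraries, summed to 472 to 1924 CPM in control, 428.8 to 3790 with MMT and 389 to 2253 with MnCl2. Their most abundant member, miR-204-5p, was highest in MMT 3, at 1922 CPM, where miR-200a-3p was at 13.5 CPM. In MnCl2 2, the library with the most miR-200a-3p, miR-204-5p was at 224 CPM. In MnCl2 1, with 53.9 CPM of miR-200a-3p, miR-204-5p was at 1146 CPM, and in MMT 2, with 41.4 CPM, at 201 CPM. In MMT 1, where miR-200a-3p was not counted, miR-204-5p was at 238 CPM.

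The 6 miRNAs of ciliated cells summed to 152 to 460 CPM in control, 219 to 559 with MMT and 224 to 641 with MnCl2. For the 8 miRNAs of other epithelia the ranges were 735 to 901, 691 to 1105 and 756 to 1174 CPM. Blood and vessel miRNAs, all 6 of them present, ran from 13033 to 18317, from 14448 to 16818 and from 14110 to 28027 CPM. MnCl2 1, with 53.9 CPM of miR-200a-3p, was the highest library in 3 of these 4 lists, and MnCl2 2, with 61.6 CPM, was among the 4 lowest in each. In MMT against control the median log2 fold change of the tested members was 0.19 for choroid plexus, 0.10 for ciliated cells, 0.11 for other epithelia and 0.06 for blood and vessel. In MnCl2 against control these medians were -0.13, 0.46, 0.28 and 0.51, beside 0.23 for all miRNAs. No member of any marker list was called in any comparison.

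The miR-183 cluster, known from sensory organs and the pineal gland, gave another order of libraries. Its 3 miRNAs summed to 14.5, 51.9 and 53.2 CPM in control, 29.8, 82.9 and 36.2 with MMT and 95.4, 83.1 and 46.2 with MnCl2. As for miR-141-3p, control 1 was lowest, and MMT 2, MnCl2 1 and MnCl2 2 were highest. The median log2 fold change of these 3 miRNAs was 0.26 in MMT against control and 0.95 in MnCl2 against control.

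Among the 1106 tested entries outside the family, the pattern over the 9 libraries most like that of the summed chromosome 5 cluster belonged to miR-133b-5p, with Pearson's r = 0.927 on log2 CPM (rho 0.967). After it came miR-3084b-3p (r = 0.923), the piRNA pir-84491 (0.914), a tRNA gene for alanine with anticodon AGC (0.909) and miR-183-5p (0.907). The median r over the 1106 was 0.06, and these 5 are the top of that ranking. All 5 are scarce, with 139 to 252 counts in all, and correlate with the total count themselves, with r from -0.635 to -0.903. The cluster did so with r = -0.731, so all points share the depth of their library.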

How the data were processed

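The authors deposited raw counts per small RNA entry, 1 column a library. The values are whole numbers and their totals differ between libraries, so they were not normalized. Per the labels' protocols, TRIzol RNA was size-selected on a gel and made into libraries with a QIAseq miRNA kit. Per the submitters' processing notes, Trimmomatic was used and the build was rn6; aligner, strand, multiple matches and molecular identifiers: not given in the sources used here. Members and lists were chosen with earlier results of these data known. The test was the two-sided quasi-likelihood test of edgeR 4.0.16 (R 4.3.3) with robust weights and TMM scaling, on all 9 libraries together, with Benjamini-Hochberg adjustment at 0.05. Of 1759 entries filterByExpr kept 1113, namely 615 miRNAs, 88 piRNAs and 410 tRNA genes. Levels are TMM-scaled CPM, and log2 levels use a prior count of 2. Correlations were two-sided, over all 362880 orders of the libraries. Alternatives included DESeq2 1.42.0, other scalings and filters, and each library left out; the total count as a covariate was added after the data were seen. Named entries are the 8 members, the 5 entries most like the chromosome 5 cluster, and marker lists with their most abundant member. Scripts were tested on simulated data. Other steps used Python 3.11.15, matplotlib 3.10.9, pandas 2.3.3, scipy 1.17.1 and numpy 2.4.6.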

Additional observations from a re-analysis of the deposited data

How the results depend on the processing

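Counts of called entries stayed at 0 in all 3 comparisons under every alternative run, except that without the low-count filter MnCl2 against control had 1 call, miR-200a-3p. That call is of the member and comparison by which the family was chosen. The stricter filter, 10 CPM in 3 libraries, kept the same 1113 entries. Same-numbered libraries correlated in their deviations from -0.666 to 0.493 over 9 pairs. Differently numbered libraries ran from -0.771 (control 1 with MMT 2) to 0.753 (control 3 with MMT 2). These values show no pairing by number and cannot exclude one. With the replicate block 0 entries were called in each comparison, and 17, 42 and 15 were at an unadjusted p under 0.05 in MMT against control, MnCl2 against control and MMT against MnCl2. The sign of members near 0 in MMT against control turned with the setting, and the cause was not tested. With the replicate block miR-200b-3p was at -0.11, miR-200b-5p at 0.16 and miR-141-5p at 0.12. With RLE size factors miR-200b-5p was at 0.022 and miR-141-5p at 0.012, without the filter at 0.021 and 0.0081, and with the covariate of total count at 0.45 and 0.36. With miRNAs scaled alone miR-200b-3p was at -0.10. With 1 library left out, miR-200a-5p ran from -0.95 to 0.051, miR-200b-3p from -0.64 to 0.53, miR-200b-5p from -0.72 to 0.71, miR-141-3p from -0.54 to 1.25 and miR-141-5p from -0.78 to 0.80. In MnCl2 against control miR-200b-5p turned to -0.22 without control 1, and no other member turned there or in MMT against MnCl2 under the alternatives run. Scaled on miRNAs alone, the summed chromosome 5 cluster was at 133.7 CPM for control, 127.3 for MMT and 203.0 for MnCl2. The chromosome 4 cluster was then at 87.9 CPM for control, 87.3 for MMT and 127.4 for MnCl2. These levels are higher than with the main scaling, since the total of a library is then that of its miRNAs. Depth limits miR-200c-3p, miR-200b-3p and miR-200b-5p most, with at most 15 counts a library.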
